A study of Mus with 18 samples.

Results

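The transcription factors that build and maintain skeletal muscle, together with the myoblast adhesion molecule M-cadherin, were followed in C2C12 cells and in mouse gastrocnemius muscle. The genes were chosen by symbol. They are Myod1, Myf5, Myf6 and Myog (the myogenic regulatory factors), Pax7, Mef2a, Mef2c, Mef2d and Cdh15, which encodes M-cadherin. All 9 were found in both expression tables, among 21401 gene symbols in each. Myod1, Myf5, Myf6 and Myog encode basic helix-loop-helix proteins that pair with E proteins, bind E-box sequences and switch on muscle genes. Pax7 marks satellite cells, the stem cells of adult muscle, Myf5 and Myod1 mark committed myoblasts, Myog is induced when myoblasts leave the cell cycle and differentiate, and Myf6 (MRF4) is the abundant member in mature fibres. MEF2 proteins act beside the myogenic factors on the promoters of contractile genes, and M-cadherin joins myoblasts before they fuse.

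RNA was sequenced in 18 libraries, 3 for each of 3 groups in each experiment. C2C12, a line of mouse myoblasts labelled wild type, was given a vehicle (control), lipopolysaccharide (LPS, a bacterial inducer of inflammation) at 1 μg/mL, or LPS with moringa isothiocyanate-1 (MIC-1, a plant isothiocyanate), and was collected after 24 h. The labels give 10 μM as the MIC-1 concentration. The methods of the study give a range that includes it, and its results text names a lower concentration for the sequenced cells. In the animal experiment, wild-type male C57BL/6 mice, whose age is not given in the sources used here, received vehicle, LPS at 10 mg/kg by intraperitoneal injection, or MIC-1 at 80 mg/kg by gavage daily for 3 days before the same LPS dose, and trimmed gastrocnemius was taken 16 h after LPS. The labels do not say whether libraries came from separate cultures or animals, so p-values measure the spread between libraries. Values are FPKM (fragments per kilobase of transcript, scaled to the depth of each library), which allow levels to be compared between genes. Their totals differed between libraries, from 547475 to 797734 in C2C12 and from 634197 to 740810 in muscle. Small differences between libraries therefore depend on the scaling.

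The libraries were first set against markers of the cell types they could hold. In the 9 libraries labelled C2C12, the defining genes of myoblasts were at or near 0 in 6. The sum of the 4 myogenic regulatory factors was 0, 0 and 0.0293 FPKM in the control libraries and 0, 0 and 0.124 in the LPS libraries, against 84.7, 82.4 and 97.0 in the LPS-MIC-1 libraries. A list of macrophage markers, of which 18 of 21 symbols were found, ran the other way. Its summed FPKM lay between 13694.5 and 13803.2 in control and between 8252.9 and 8403.8 in LPS, but was 308.1, 81.1 and 105.6 in LPS-MIC-1 replicates 1, 2 and 3. Against LPS, all 15 of the tested macrophage genes were called lower in LPS-MIC-1, beside 25.6% of all genes. A gene was tested where its mean over the 9 libraries was over 1 FPKM. Ptprc, Fcgr1 and C1qc reached this only through the other libraries, with LPS-MIC-1 means of 0.419, 0.336 and 0 FPKM. The count of 15 was therefore partly fixed and is a description. Lyz2, a lysozyme of macrophages, had 4723, 4598 and 4761 FPKM in control and 1786, 1867 and 1863 in LPS, against 48.8, 1.87 and 0.616 in LPS-MIC-1. A fibroblast list of 10 genes summed to at most 0.456 in control and 2.18 in LPS and to between 464.5 and 562.6 in LPS-MIC-1, with 5 of its genes listed at 0 in every control library.

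These markers go against the label of a myoblast line in the libraries labelled control and LPS. Each direction given for C2C12 is therefore one between libraries with those labels, and cell identity and treatment cannot be told apart there. Leaving out the 6 libraries leaves no comparison in cells.

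**Figure D1:**
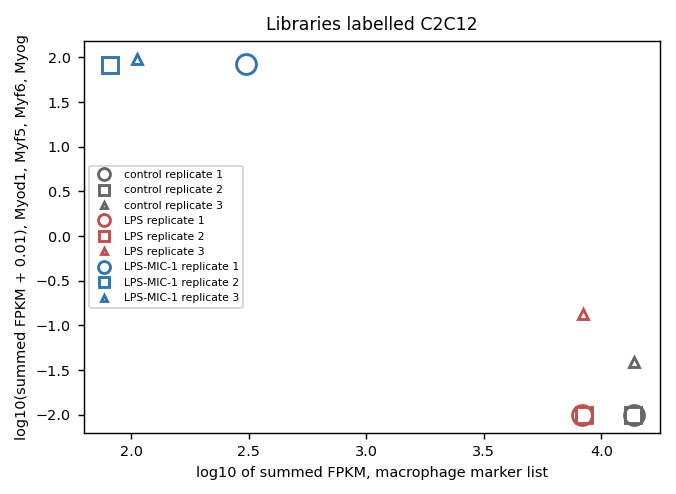
Each symbol is 1 library labelled C2C12. The horizontal axis gives the log10 of the summed FPKM of the macrophage marker list and the vertical axis the log10 of the summed FPKM of Myod1, Myf5, Myf6 and Myog plus 0.01, so that libraries with a sum of 0 lie at the bottom. The 3 LPS-MIC-1 libraries sit alone at the upper left, replicate 1 with the highest macrophage sum of the 3, and the 6 control and LPS libraries sit at the lower right.

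The muscle libraries matched their tissue. The summed FPKM of 15 muscle fibre markers was 251526.5 to 257903.8 in control, 240217.8 to 246120.3 with LPS and 189627.7 to 203591.2 with LPS-MIC-1. Further properties moved with the groups. Lcn2 and Saa3, genes of the acute response to LPS, were low in the libraries labelled LPS (0.972 ± 0.552 and 1.03 ± 0.265 FPKM, SD, n = 3) and high in those labelled LPS-MIC-1 (1248 ± 79.1 and 511 ± 31.9). In control, Lcn2 had 0.516 ± 0.444 FPKM and Saa3 was listed at 0. The summed FPKM of 11 LPS response genes was 62.7 to 71.7 in control, 145.2 to 150.7 in the libraries labelled LPS and 13377.8 to 15125.9 in those labelled LPS-MIC-1. Of 8 tested, 4 were called higher and 1 lower in LPS against control, beside 0.654% and 0.591% of all genes. The lower was Socs3 (0.697 ± 0.395 against 5.504 ± 0.771). All 8 were called higher in LPS-MIC-1 against LPS, beside 9.67% of all genes. Testing required a mean over 1 FPKM over the 9 libraries, which Lcn2, Saa3, Ccl2 and Cxcl1 reached through LPS-MIC-1 alone, so that count was partly fixed. Saa3 and Ccl2, among the 4 called higher in LPS against control, had only 1.03 and 0.564 FPKM in LPS. By the sums and medians, the labels of the muscle libraries are in doubt. What set the groups apart was not tested. Each direction given for muscle is one between libraries with those labels.

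Markers of other cell types moved with the muscle groups too. The macrophage list summed to 34.0 to 39.3 in control, 49.0 to 52.5 with LPS, and 51.9, 53.9 and 270.5 with LPS-MIC-1 replicates 1, 2 and 3, so that replicate 3 stood apart from the other muscle libraries. Its Lyz2 was 78.3 FPKM against 5.27 and 3.93. Other lists moved in all 3 LPS-MIC-1 libraries. The neutrophil list (9 of 10 symbols found) summed to 1.73 to 2.74 in control, 1.76 to 2.02 with LPS and 14.35 to 19.9 with LPS-MIC-1, with 3, 3 and 1 of its genes at 0 in every library of the group. The Schwann cell list of 7 genes summed to 9.645 to 12.4, 6.96 to 8.34 and 23.05 to 25.4. Of 9 fibroblast genes tested, 3 were called lower and 0 higher for LPS-MIC-1 against LPS, beside 5.44% and 9.67% of all genes. Col1a1 (4.44 ± 0.105 against 12.7 ± 0.392) and Thy1 (0.994 ± 0.167 against 6.22 ± 0.784) were among those lower. Dcn, the most abundant gene of the list, had a higher mean without being called (119.8 against 74.55 FPKM), as did Pdgfrb (8.887 against 5.327). The list's sum was 132.8 to 137.5 in control, 135.9 to 139.2 with LPS and 144.7 to 164.5 with LPS-MIC-1. The endothelial list of 10 genes summed to 128.4 to 132.8, 84.4 to 87.45 and 116.1 to 133.9, but its genes went both ways. For LPS-MIC-1 against LPS, Cldn5 (31.5 against 5.64 FPKM) and Esam (25.7 against 12.2) had higher means. Kdr (2.59 against 5.07), Eng (8.54 against 15.85) and Ptprb (1.66 against 3.03) had lower ones. Of 9 tested against control, 1 was called higher and 3 lower in LPS-MIC-1, beside 9.33% and 6.12% of all genes. The part of these markers in the results was not tested, and results with and without the replicate are given where it changed a call. In whole tissue, fewer cells of a type and less RNA per cell cannot be told apart.

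Expression was compared with limma on log2(FPKM + 0.1), separately in each experiment, for genes with a mean over 1 FPKM. A gene was called where its Benjamini-Hochberg adjusted p fell under 0.001 (C2C12) or under 0.05 (muscle) and its log2 fold change exceeded 1 in size. Of the 9 members, 5 could be tested in C2C12 (Myod1, Myf5, Myog, Mef2d and Cdh15) and 7 in muscle (all but Pax7 and Mef2d). Because a member high in a single group passes the filter through that group, the number tested is no result. An exact 2-sided permutation of 3 against 3 libraries gives at best p = 0.1, and it gave this for each member whose groups did not overlap. Non-overlap itself was common, at 79.4% of tested genes for LPS against control, 85.5% for LPS-MIC-1 against LPS and 83.0% for LPS-MIC-1 against control in C2C12, and at 36.5%, 64.2% and 64.6% in muscle.

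In the cells, the myogenic factors were present in the LPS-MIC-1 libraries and at or near 0 elsewhere. Myod1, the factor that commits cells to the myogenic lineage, had 56.7, 49.5 and 55.7 FPKM in the 3 LPS-MIC-1 libraries. Its values were 0, 0 and 0.0293 in control and 0, 0 and 0.0355 in LPS. Myog had 23.6, 25.7 and 34.3 FPKM in LPS-MIC-1, was listed at 0 in control, and had 0, 0 and 0.0890 in LPS. Groups did not overlap between LPS-MIC-1 and either other group for these genes, and the few values above 0 elsewhere were in replicate 3 of control and of LPS. Myf5, the other early factor, had 4.29, 7.08 and 6.56 FPKM in LPS-MIC-1 and was listed at 0 in all 6 other libraries. Myf6 had 0.130, 0.158 and 0.402 FPKM in LPS-MIC-1 and was listed at 0 in the rest.

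Cdh15 was the most abundant member in the LPS-MIC-1 cells, with 175.0, 165.8 and 192.2 FPKM. In control it had 0, 0 and 0.0184 FPKM, and in LPS 0, 0 and 0.355, the last being 0.200% of the LPS-MIC-1 mean. The same LPS replicate 3 carried Myog at 0.319% of its LPS-MIC-1 mean, and Des, the muscle intermediate filament gene, at 0.298%. Pax7 was close to absent from all 9 libraries, with 0.0680, 0.111 and 0 FPKM in LPS-MIC-1 and 0 in the others.

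Of the MEF2 genes, Mef2d alone was well expressed in the cells, and it was the one member called lower in LPS-MIC-1. It had 51.0, 51.7 and 48.3 FPKM in control, 65.5, 61.8 and 64.6 with LPS, and 16.0, 18.0 and 12.7 with LPS-MIC-1, with no overlap between any 2 groups. Mef2a and Mef2c stayed at or under 1.40 FPKM in every library and were not tested. Mef2a was listed at 0 in LPS-MIC-1 replicates 2 and 3 and had 1.40 in replicate 1, and Mef2c ranged from 0 to 0.833 over the 9 libraries. Members therefore stood in a different order in the groups. Mef2d led in control (50.4 ± 1.78 FPKM, SD, n = 3) and in LPS (64.0 ± 1.91). In LPS-MIC-1 the order was Cdh15 (177.6 ± 13.4), Myod1 (53.9 ± 3.88), Myog (27.9 ± 5.68), Mef2d (15.5 ± 2.68) and Myf5 (5.98 ± 1.49), with no overlap between neighbours, followed by Mef2a and Mef2c, which overlapped.

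**Figure D2:**
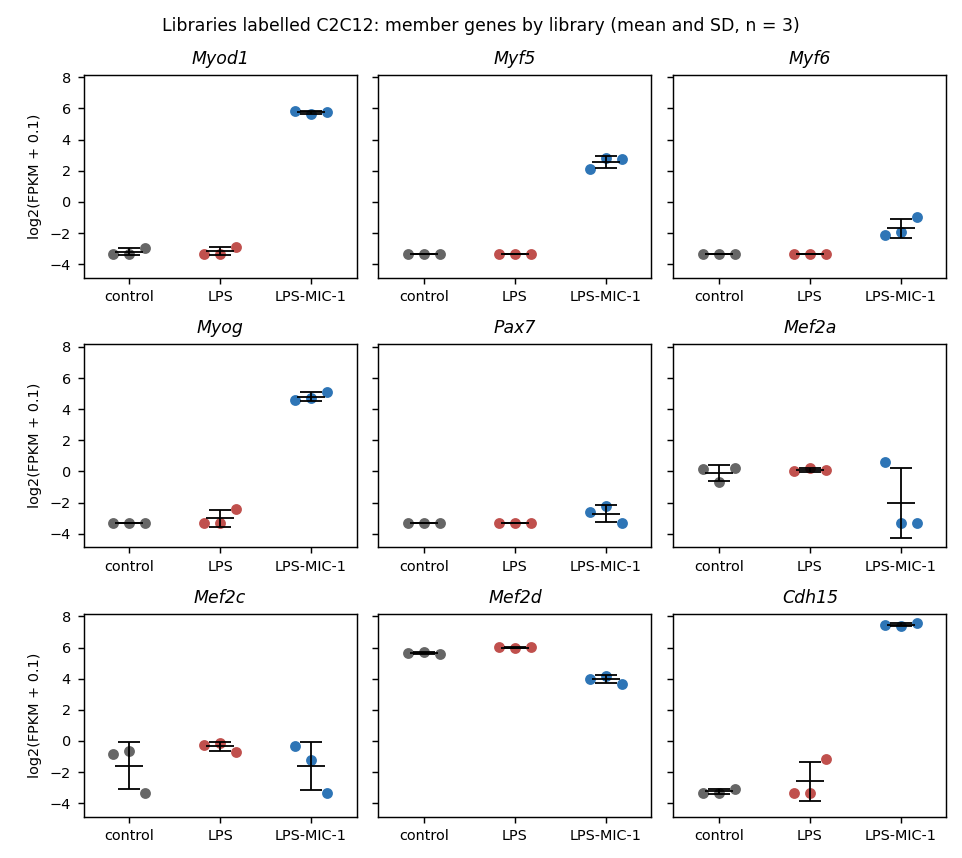
Expression of the 9 members in the libraries labelled C2C12, as log2(FPKM + 0.1) on the vertical axis for the control, LPS and LPS-MIC-1 groups. Points are libraries in the order of replicates 1 to 3, and bars give the mean and SD of the log2 values (n = 3). Myod1, Myf5, Myog and Cdh15 were at or near the floor in control and LPS, and Mef2d was lowest in LPS-MIC-1.

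Comparing LPS-MIC-1 with LPS, limma called 4 of the 5 tested members higher, all of which passed the filter through LPS-MIC-1, and 1 lower, in a comparison in which 49.9% of 10877 genes were called (24.3% higher and 25.6% lower). Mef2d had a log2 fold change of -2.05 (SE 0.114, adjusted p = 5.62e-07), a level 4.12-fold lower. For Myod1, the fitted log2 fold change was 8.93 (SE 0.179, adjusted p = 4.43e-09), for Myog 7.80 (SE 0.272, adjusted p = 4.17e-08) and for Cdh15 10.06 (SE 0.535, adjusted p = 4.42e-07). With most LPS values at 0, the sizes depend on the value added before the logarithm, and for Myod1 the alternatives gave 5.76 to 11.67. Myf5 was called as well (adjusted p = 3.38e-08), and as it was listed at 0 in every LPS library no fold is given. All 5 calls held in each alternative that tested the gene.

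LPS-MIC-1 was also set against control, which uses the same LPS-MIC-1 libraries. The same 5 genes were called, Myod1, Myf5, Myog and Cdh15 higher and Mef2d lower, where 43.3% of genes were called (21.1% higher and 22.1% lower). Mef2d was 3.24-fold lower (log2 fold change -1.70, SE 0.114, adjusted p = 2.02e-06).

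For LPS against control in the cells, none of the members was called (0 of 5), where 20.9% of all genes were called (10.9% higher and 10.0% lower). The count is no result, because Myod1, Myf5, Myog and Cdh15 were at or near 0 in both groups and entered the test through LPS-MIC-1, which left Mef2d. By limma at an unadjusted p under 0.05 and the same fold, the count was also 0. Mef2d had the smallest adjusted p, 0.0282, for a log2 fold change of 0.34 (95% interval 0.08 to 0.61), which was 0.01 (adjusted p = 0.981) once libraries were set to equal FPKM totals. The totals themselves differed, from 547475 to 552373 FPKM in control against 687390 to 701659 in LPS. Cdh15 had a log2 fold change of 0.65 (95% interval -0.59 to 1.89), which was -0.08 without LPS replicate 3.

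Other genes of the myogenic programme were counted in the cells from 4 lists. Differentiation and fusion genes had 35 of 38 symbols found and 20 tested. Of the 60 genes tested over the 4 lists, 34 had a mean over 1 FPKM in LPS-MIC-1 alone and so had to be higher there, 14 of them in this list. The list counts are thus partly set by the filter and are given as a description. In LPS-MIC-1 against LPS, 17 of the 20 were called higher and 1, the cell cycle regulator Rb1, lower. Over all genes, 24.3% were called higher and 25.6% lower. Tmem8c, which encodes the fusion protein myomaker, had 152.5 ± 28.7 FPKM (SD, n = 3) against 0.147 ± 0.254. The skeletal actin gene Acta1 had 282.4 ± 63.6 against 0.244 ± 0.226, and the myosin light chain gene Myl1 had 190.1 ± 27.1 against 0.0313 ± 0.0542. The embryonic troponin gene Tnnt2 (83.9 ± 1.74) and the slow troponin gene Tnni1 (86.1 ± 13.8) were listed at 0 in control.

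Satellite cell and myoblast genes gave 12 calls higher and 2 lower of 17 tested in LPS-MIC-1 against LPS, beside 24.3% and 25.6% of all genes. Of the 17, 10 were over 1 FPKM in LPS-MIC-1 alone. Des had 397.7 ± 78.7 FPKM against 0.498 ± 0.596, the Notch target Hes1 had 225.4 ± 19.8 against 0.137 ± 0.237, and the growth factor receptor gene Fgfr1 had 105.7 ± 1.56 against 0.103 ± 0.156. The genes called lower were Sdc3 and Notch2. Of 12 upstream factors and MEF2 cofactors, 9 were called higher and 2 lower against the same background, and 8 were over 1 FPKM in LPS-MIC-1 alone. Vgll2, a partner of TEAD factors in muscle, had 28.2 ± 7.88 FPKM and was listed at 0 in LPS and control. Smarcd3, the chromatin remodelling subunit that accompanies MyoD, had 75.7 ± 5.25 against 0.368 ± 0.0590, and Klf5 had 38.9 ± 5.79 against 0.115 ± 0.133. Of the class II deacetylase genes, whose products repress MEF2, Hdac5 (12.9 ± 0.309 against 37.3 ± 1.16) and Hdac9 (0.114 ± 0.0998 against 4.17 ± 0.161) were called lower and Hdac7 (3.06 ± 0.316 against 0.359 ± 0.112) was called higher.

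The list of partners and inhibitors of the myogenic factors had 4 genes called higher and 4 lower of 11 tested in LPS-MIC-1 against LPS cells. Over all genes, 24.3% were called higher and 25.6% lower, so the even split is that of the background. Of the 11, 2 were over 1 FPKM in LPS-MIC-1 alone, Twist2 and Snai2. Those higher were Id1, Twist2, Snai1 and Snai2, and those lower were Tcf12, Id2, Bhlhe40 and Bhlhe41. Twist2, an inhibitor of MyoD, had 77.1 ± 10.6 FPKM against 0.0517 ± 0.000197. Id1, whose product withholds E proteins from the myogenic factors, had 92.6 ± 5.72 against 11.96 ± 0.830, and Snai2 had 10.8 ± 0.752 against 0.235 ± 0.0804. Against control, the counts of genes called higher and lower were 18 and 1 for differentiation and fusion, 13 and 2 for satellite cell and myoblast genes, 9 and 2 for upstream factors and cofactors, and 4 and 2 for partners and inhibitors. Over all genes, 21.1% were called higher and 22.1% lower there, and the same limit of the filter holds.

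Between LPS and control in the cells, 10 of the 60 list genes tested were called (16.7%), beside 20.9% of all genes. The share is no result, because 34 of the 60 had a mean over 1 FPKM in LPS-MIC-1 alone. In the partners list, Id1 (11.96 ± 0.830 against 2.40 ± 0.284 FPKM), Snai1 (2.88 ± 0.217 against 0.456 ± 0.0398) and Bhlhe40 (99.2 ± 1.48 against 25.8 ± 1.04) rose, and Tcf3, which encodes E proteins, fell. Cdkn1a, encoding the cell cycle inhibitor p21, rose from 120.3 ± 2.13 to 557.2 ± 5.69 FPKM and the troponin C gene Tnnc1 from 0.935 ± 0.101 to 11 ± 1.21. Chrnb1, Met, Notch1 and Notch2 also rose. No gene among the upstream factors and cofactors was called by limma (0 of 12), but 8 of the 12 had a mean over 1 FPKM in LPS-MIC-1 alone.

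In gastrocnemius, Myod1 had the largest log2 fold change of the 7 tested members in both comparisons of LPS-MIC-1. It had 23.0, 23.1 and 19.6 FPKM in control, 33.9, 34.6 and 33.3 with LPS, and 4.69, 5.27 and 4.21 with LPS-MIC-1. The LPS libraries were all highest and the LPS-MIC-1 libraries all lowest, with no overlap between any 2 groups. Myog ran differently. It had 6.75, 6.38 and 6.496 FPKM in control, 16.4, 15.5 and 17.5 with LPS, and 13.2, 13.9 and 12.3 with LPS-MIC-1, so that control was lowest and LPS-MIC-1 lay between the other groups without overlap.

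Myf6 was the most abundant member in every muscle library. It had 95.7, 92.1 and 95.8 FPKM in control, 109, 106 and 112 with LPS, and 85.5, 87.4 and 78.4 with LPS-MIC-1, again without overlap. Myf5 was low throughout, with 0.931, 1.08 and 1.01 FPKM in control, 1.10, 1.02 and 0.854 with LPS, and 1.11, 1.62 and 1.5 with LPS-MIC-1. Its control and LPS groups overlapped and its LPS-MIC-1 libraries lay above both.

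Pax7 was under the limit for testing. Its FPKM was 0.682, 0.643 and 0.615 in control, 0.543, 0.418 and 0.396 with LPS, and 0.159, 0.136 and 0.0323 with LPS-MIC-1, with no overlap between groups. When genes above 0 in at least 3 libraries were tested without the limit, Pax7 had a log2 fold change of -1.45 (SE 0.281, adjusted p = 0.00365) for LPS-MIC-1 versus LPS and -1.89 (SE 0.281, adjusted p = 0.000821) against control, and -0.44 (SE 0.281, adjusted p = 0.420) in LPS against control.

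Among the MEF2 genes in muscle, Mef2c had 60.7, 51.5 and 62.7 FPKM in control, 52.3, 53.5 and 56.4 with LPS, and 44.5, 43.9 and 41.9 with LPS-MIC-1. Control and LPS overlapped and LPS-MIC-1 lay below both. Mef2a varied within groups, with 7, 6.46 and 7.93 FPKM in control, 3.59, 8.66 and 1.23 with LPS, and 9.71, 14.1 and 10.2 with LPS-MIC-1. Mef2d was listed at 0 in all 9 muscle libraries. Among 5371 genes over 5 FPKM in every library labelled C2C12, it shared this with Adam9 and Plk4, so 3 in all, and an exact 0 in a table without counts can be a failed estimate. Cdh15 had 9.51, 10.1 and 8.90 FPKM in control, 8.93, 9.38 and 8.64 with LPS, and 6.88, 7.95 and 6.62 with LPS-MIC-1, with LPS-MIC-1 below the other groups, which overlapped.

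**Figure D3:**
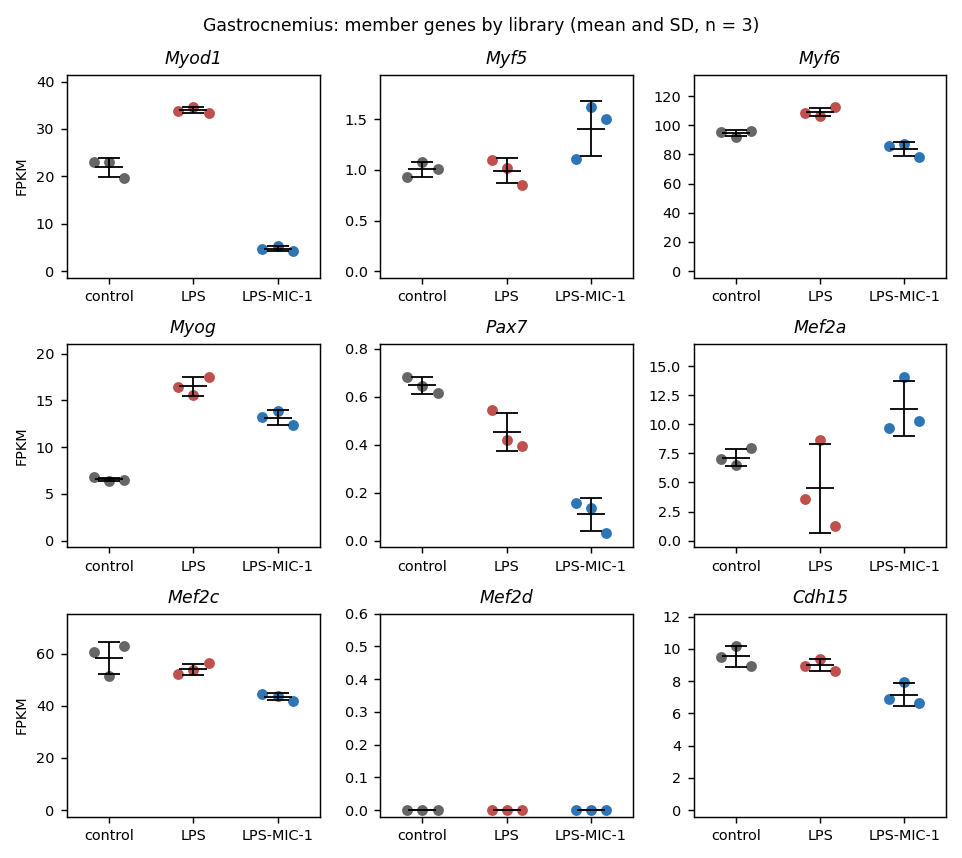
FPKM of the 9 members in gastrocnemius for the control, LPS and LPS-MIC-1 groups, each panel with its own linear vertical axis. Points are libraries in the order of replicates 1 to 3, and bars give the mean and SD (n = 3). Myod1 peaked in LPS and was least abundant in LPS-MIC-1, Myog was lowest in control, and the 3 LPS libraries of Mef2a ranged from 1.23 to 8.66.

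The order of the members in muscle changed below the leading pair. Myf6 and Mef2c came first in every group. Myod1 was next in control (21.9 ± 1.97 FPKM, SD, n = 3) and in LPS (33.9 ± 0.617), above Cdh15 or Myog without overlap. In LPS-MIC-1 it stood below Myog, Mef2a and Cdh15, at 4.72 ± 0.534. Myog (13.2 ± 0.784) and Mef2a (11.35 ± 2.385) overlapped there, as did Mef2a and Myog in control and Cdh15 and Mef2a in LPS. Myf5 and Pax7 came after the rest, ahead of Mef2d.

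Between LPS and control in muscle, limma called 1 of the 7 tested members, Myog, where 1.25% of 9475 genes were called (0.654% higher and 0.591% lower). Myog was 2.52-fold higher in LPS (log2 fold change 1.32, SE 0.0642, adjusted p = 9.43e-06), in 3 of 3 libraries. Myod1 was 1.55-fold higher (log2 fold change 0.63, SE 0.0914, adjusted p = 0.00260), under the fold limit. Myf6 was 1.15-fold higher (log2 fold change 0.21, SE 0.0453, adjusted p = 0.0177), with adjusted p from 0.00412 to 0.0666 over the alternatives. At any fold, 15.7% of genes passed the adjusted p. Mef2c (95% interval of the log2 fold change -0.27 to 0.06), Cdh15 (-0.27 to 0.11), Myf5 (-0.48 to 0.43) and Mef2a (-2.34 to 0.26) did not pass. Mef2a was called lower without LPS replicate 2 (log2 fold change -1.70, adjusted p = 0.036), and had -0.34 (adjusted p = 0.585) without LPS replicate 3.

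Between LPS-MIC-1 and LPS in muscle, 2 of the 7 were called, Myod1 lower and Mef2a higher, against a background of 15.1% of genes (9.67% higher and 5.44% lower). Myod1 was 7.18-fold lower (log2 fold change -2.82, SE 0.0914, adjusted p = 6.31e-08), and it was called lower in each of the 21 alternatives. Mef2a had a log2 fold change of 1.69 (SE 0.566, adjusted p = 0.0327), and the call was lost in 6 alternatives, among them leaving out any 1 LPS-MIC-1 library (adjusted p = 0.0583, 0.0928 and 0.0635 without replicates 1, 2 and 3), LPS replicate 1 (adjusted p = 0.0681) or LPS replicate 3, without which the log2 fold change was 0.99.

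Smaller differences below the fold limit were also present. Myf6 (log2 fold change -0.38, SE 0.0453, adjusted p = 0.000146) and Myog (-0.32, SE 0.0642, adjusted p = 0.00274) fell. Mef2c had -0.31 (SE 0.0726, adjusted p = 0.00602) and Cdh15 -0.33 (SE 0.0825, adjusted p = 0.00918), which with equal FPKM totals were -0.19 (adjusted p = 0.0581) and -0.20 (adjusted p = 0.0517). At any fold, 56.5% of all genes passed the adjusted p here, so that 6 of 7 members doing so stands beside a high background. Myf5 had 0.46 (95% interval 0.00 to 0.91, adjusted p = 0.0792).

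Against control, LPS-MIC-1 muscle showed 1 call among the 7, Myod1, where 15.5% of genes were called (9.33% higher and 6.12% lower). Its level was 4.63-fold lower (log2 fold change -2.19, SE 0.0914, adjusted p = 2.70e-07). Myog was 2.01-fold higher, with a log2 fold change of 1.00 (SE 0.0642, adjusted p = 3.61e-06) that lay just under the fold limit and passed it in 5 alternatives, 1.04 without LPS-MIC-1 replicate 3 and 1.02 without control replicate 1 among them. Mef2c (-0.42, SE 0.0726, adjusted p = 0.00126) and Cdh15 (-0.41, SE 0.0825, adjusted p = 0.00282) were lower on the log2 scale. Myf6 had -0.18 (SE 0.0453, adjusted p = 0.0102), which with equal totals was -0.02 (adjusted p = 0.695). Mef2a (95% interval -0.65 to 1.95) and Myf5 (-0.02 to 0.88) did not pass. At any fold, 58.5% of genes passed in this comparison.

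**Figure D4:**
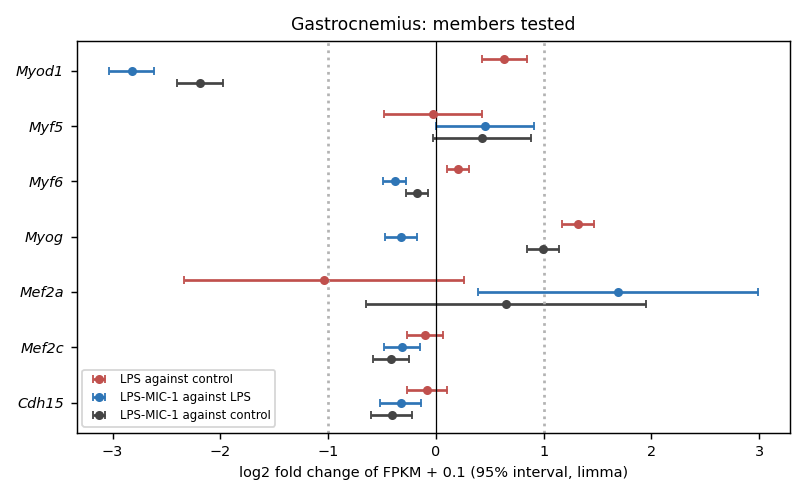
Log2 fold changes of the 7 members tested in gastrocnemius, on log2(FPKM + 0.1), with 95% intervals from limma, for LPS against control, LPS-MIC-1 against LPS and LPS-MIC-1 against control. Dotted lines mark the fold limit of 1 in each direction. Myod1 lies beyond it in both comparisons of LPS-MIC-1, Myog in LPS against control, and the intervals of Mef2a are the widest.

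The 4 myogenic regulatory factors were also taken as a family, since they share DNA targets. Their summed FPKM in muscle was 124 ± 2.08 (SD, n = 3) in control, 160.5 ± 3.31 with LPS, and 103 ± 5.99 with LPS-MIC-1. Myf6 made up 76.3 ± 1.49% of the sum in control, 68.0 ± 0.479% with LPS, and 81.3 ± 0.506% with LPS-MIC-1. The share of Myod1 was 17.6 ± 1.51%, 21.1 ± 0.815% and 4.57 ± 0.268% in the same order, and that of Myog was 5.28 ± 0.0727%, 10.3 ± 0.405% and 12.8 ± 0.0945%. The ratio of Myod1 to Myog, which does not depend on how libraries are scaled, was 3.40, 3.62 and 3.02 in control, 2.06, 2.22 and 1.90 with LPS, and 0.354, 0.380 and 0.341 with LPS-MIC-1. It thus differed between all groups without overlap, and Myod1 exceeded Myog in control and LPS but not in LPS-MIC-1.

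In the LPS-MIC-1 cells, whose table was normalized separately, the family had another make-up. Myod1 was 61.5 ± 4.90% of the sum, Myog 31.5 ± 3.78%, Myf5 6.81 ± 1.76% and Myf6 0.254 ± 0.141%. The ratio of Myod1 to Myog was 2.40, 1.93 and 1.62 in replicates 1, 2 and 3. For the other groups of cells no shares are given, as their sums were at or near 0.

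**Figure D5:**
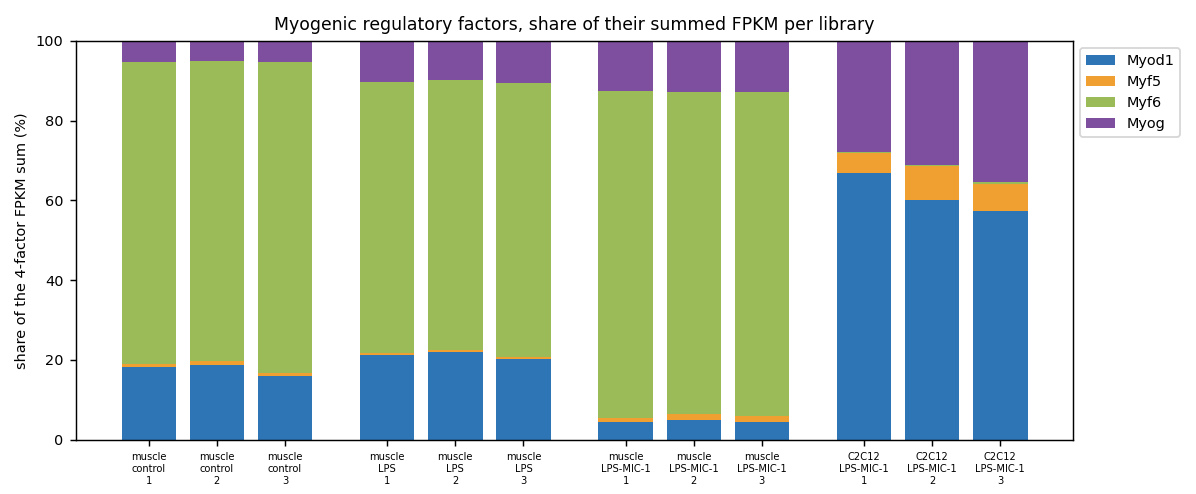
Stacked bars give the share of Myod1, Myf5, Myf6 and Myog in their summed FPKM, in percent, for each of the 9 muscle libraries and the 3 LPS-MIC-1 libraries labelled C2C12. Myf6 takes the largest share in muscle and Myod1 in the cells, and in muscle the Myod1 share is lowest and the Myog share highest in LPS-MIC-1.

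The same 4 lists of myogenic genes were counted in muscle. They were chosen with earlier results of these data known, so each share of list genes called is a description and no result. Between LPS and control, 2 of 72 tested genes were called (2.78%, beside 1.25% of all genes), both in the differentiation and fusion list. Myoz2, encoding a Z-disc protein of slow fibres, rose from 4.14 ± 0.520 to 10.7 ± 0.410 FPKM (SD, n = 3), and Tnni1 fell from 0.848 ± 0.303 to 0.204 ± 0.132. None was called among partners and inhibitors (0 of 9), upstream factors and cofactors (0 of 16) or satellite cell and myoblast genes (0 of 21) by limma.

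In LPS-MIC-1 against LPS, where 15.1% of all genes were called (9.67% higher and 5.44% lower), 26 of the 72 list genes were called (36.1%), 3 of the 72 having passed the filter through LPS-MIC-1 alone. Of these calls, 13 were higher and 13 lower. As above, the share is a description, because of how the lists were chosen. In this comparison 7 of the 26 differentiation and fusion genes were called higher and 3 lower, and the list's median log2 fold change was 0.13, beside -0.01 over all genes. The slow-fibre troponin genes were among those higher. Tnnt1 had 13.6 ± 1.92 FPKM against 0.148 ± 0.256, Tnnc1 40.8 ± 3.08 against 1.02 ± 0.812, and Tnni1 13.4 ± 1.80 against 0.204 ± 0.132. Cdkn1a rose from 6.64 ± 0.614 to 136 ± 0.781, and Musk, Tnnt2 and Hspb7 rose too. Musk, whose product organises the neuromuscular junction, had 16.4 FPKM against 2.91. The genes called lower were Actc1, Mybph and Klhl31.

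Satellite cell and myoblast genes gave 3 calls higher and 5 lower of 21 in LPS-MIC-1 versus LPS, beside the 9.67% and 5.44% of all genes, and the median log2 fold change was -0.09. Peg3, expressed in muscle progenitors, had 11.6 ± 0.569 FPKM against 1.81 ± 0.313, and Sdc4 and Notch2 were also higher. Hey1, a Notch target, had 0.296 ± 0.0270 against 2.23 ± 0.260, and Chrdl2 was listed at 0 against 2.36 ± 0.537. Hes1 (4.15 against 15.6 FPKM), Notch3 (1.26 against 3.34) and Cav1 (21.1 against 45.3) were lower as well.

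Upstream factors and cofactors gave 3 calls higher and 3 lower of 16 in the same comparison, against the same background. Pitx3 and Klf5 were among those called higher. Six5 had 0.457 ± 0.0837 FPKM against 1.33 ± 0.156 and Meox2 1.49 ± 0.215 against 3.99 ± 0.498, and Six4 was the other gene called lower. Among 9 partners and inhibitors, Bhlhe41, a repressor that acts on MyoD, had 5.56 ± 0.329 against 16.3 ± 1.30 and Twist1 0.735 ± 0.228 against 1.55 ± 0.124, and no gene was called higher.

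Against control, the counts of genes called higher and lower in LPS-MIC-1 muscle were 7 and 3 for differentiation and fusion, 2 and 6 for satellite cell and myoblast genes, 5 and 3 for upstream factors and cofactors, and 1 and 2 for partners and inhibitors, or 29 of 72 in all (40.3%, beside 15.5% of all genes). This share too is a description, for the same reason. In the last list Id1 had 8.28 ± 2.09 FPKM against 18.0 ± 1.28, Twist1 0.735 ± 0.228 against 2.04 ± 0.295, and the E protein gene Tcf12 1.93 ± 0.637 against 0.640 ± 0.299. Cdkn1a had 136 ± 0.781 against 6.94 ± 0.666, and Klf5 2.31 ± 0.398 against 0.588 ± 0.0966.

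Genes whose pattern over the 9 libraries was nearest to a member's were found from FPKM in percent of each gene's highest library, by root mean square difference. In the cells, Selp lay nearest to Myod1, at 0.214 percentage points, followed by Sim2 (0.246), Grem1 (0.737), Pnmal2 (0.799) and Fstl1 (0.977), where the median over all genes was 66.5. Nearest to Cdh15 were Tgfb3 (0.586), Smarcd3 (0.686), Maged1 (0.691), Anxa8 (0.692) and Large (0.730). These genes share with the members the near absence from control and LPS.

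In muscle, the genes nearest to Myf6 were Qdpr (1.74 percentage points), Dnaja3 (2.21), Tubb2c (2.55), Sdhd (2.70) and Ahsa1 (2.73), against a median of 19.0. Nearest to Mef2c were Acyp2 (2.71), Dip2c (3.04), Riiad1 (3.47), Mrpl13 (3.61) and Prkcq (3.98). Myog had no neighbour as close, with Zbed6 at 6.31, Ldhb at 8.23 and Mb, Nr4a1 and Tmem100 at 10.8 each, against a median of 32.5. Mb, which encodes myoglobin, had 772 ± 34.2 FPKM in control, 1413 ± 36.2 with LPS, and 1175 ± 66.1 with LPS-MIC-1.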

How the data were processed

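The authors deposited FPKM values per gene and library, made from kallisto pseudoalignments collected by tximport. The submitters' processing notes name mm9, kallisto and DESeq2. The authors' own DESeq2 comparison results (fold changes and p-values) were not used. In the muscle table, 9 columns of per-sample values without a name were not used. Groups came from the sample labels.

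Depth is not stated. By the steps between the lowest FPKM values, depth relative to control replicate 1 was 0.464 to 1.02 in C2C12 (lowest in LPS-MIC-1 replicate 3) and 0.988 to 1.11 in muscle, so values near 0 rest on few reads. Between replicates, Pearson's r of log2 values over genes lay at 0.936 to 0.989 in C2C12 and at 0.949 to 0.962 in muscle, and no libraries were identical.

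The model, limma 3.58.1 in R 4.3.3, was run on log2(FPKM + 0.1) once per experiment, with a mean for each group, 9 libraries and a trended eBayes prior, for genes with a mean over 1 FPKM (10877 in C2C12 and 9475 in muscle). Fold changes on this scale understate those of low genes. The Benjamini-Hochberg adjustment covered every gene tested in a comparison. The fit was also run on simulated data with normal noise and far fewer changed genes than the LPS-MIC-1 comparisons called. No result here rests on that run. Tables were made in Python 3.11.15 with pandas 2.3.3, and figures with matplotlib 3.10.9.

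The members and lists were chosen with earlier results of these data known. The genes named were the members, the 3 called genes with the largest change per list and comparison, the 3 most abundant markers per cell type, Lcn2, Saa3 and the 5 nearest genes in pattern; other list genes, with Adam9 and Plk4, were chosen after their values were seen. A gene that this rule names is not reported here. Settings varied were the pseudocount (1 and 0.01), the filter (none, a mean over 5 FPKM), median-ratio scaling, quantile normalization, equal FPKM totals (added after seeing the data), no trend, the 6 libraries compared, array weights, unadjusted p-values, a replicate block and leaving out each library.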

Additional observations from a re-analysis of the deposited data

Results flagged for a closer look

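Some members moved one way in every LPS-MIC-1 library of the cells and the opposite way in every LPS-MIC-1 library of muscle. The experiments were normalized apart and the difference between them was not tested. Of the genes below, Myod1 alone was called in muscle, and Myog, Myf6 and Cdh15 lay under the fold limit there. At any fold, 56.5% of muscle genes passed the adjusted p against LPS and 58.5% against control. Myf6 was too low to be tested in the cells. Against LPS, the difference of mean FPKM (LPS-MIC-1 minus LPS) was 53.9 in cells and -29.2 in muscle for Myod1, 27.9 and -3.33 for Myog, 0.230 and -25.4 for Myf6, and 178 and -1.83 for Cdh15. Against control, the difference was 53.9 and -17.1 for Myod1, 0.230 and -10.7 for Myf6, and 178 and -2.37 for Cdh15. Beside these, the macrophage list summed to at least 8252.9 FPKM in the LPS and control libraries of the cells and to at most 308.1 in LPS-MIC-1, so cell identity and treatment cannot be told apart in the cells. In muscle the same sum was at most 52.5 in LPS and 270.5 in LPS-MIC-1 replicate 3, without which the log2 fold change of Myod1 against LPS was -2.75 (limma, adjusted p = 3.90e-07).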

How the results depend on the processing

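Over 36 results for members, 729 of 750 values under alternatives kept their direction and their call. A call joins the adjusted p and the fold limit, and the adjusted p alone crossed its threshold in some alternatives. For Myf6 in muscle LPS against control, limma's adjusted p went from 0.0177 to 0.0666 without LPS replicate 3. The 750 include fits without a library outside the comparison, where the fold cannot change. In muscle, the number of members called in LPS against control was 1 to 2 when single libraries were left out (2 without LPS replicate 2, where Mef2a had -1.70). In LPS-MIC-1 against LPS it was 1 with the 6 libraries compared alone and 1 to 2 when single libraries were left out, the change being Mef2a. With no FPKM filter, Pax7 was also called lower there (limma, log2 fold change -1.45, adjusted p = 0.00365). Against control the number was 2 with a pseudocount of 0.01, with no FPKM filter (Pax7), with equal FPKM totals and with array weights. It was 1 to 2 when single libraries were left out, the change being Myog apart from Pax7. In the cells, Myf6 was also called higher with no FPKM filter (limma, log2 fold change 1.63, adjusted p = 0.000543 against LPS and 0.000589 against control). Values near 0 changed sign. In LPS against control in cells, Cdh15 ranged from -0.081 to 1.01 and Myod1 from -0.12 to 0.15 when single libraries were left out, and Myod1 was -0.29 with quantile normalization and -0.0059 with equal totals. Myf5 in muscle LPS against control ranged from -0.097 to 0.066 when single libraries were left out and was 0.021 with quantile normalization. The causes were not tested.

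Counts over all genes moved more. In cells LPS against control, 1182 genes were called higher and 1093 lower, but 798 and 1900 with equal totals, which shifted the median of all genes by -0.30 on the log2 scale. For LPS-MIC-1 against control the numbers were 2300 and 2408, then 1713 and 3238 with equal totals (shift -0.38), and 1533 were higher at a mean over 5 FPKM. In muscle LPS against control, 62 and 56 became 37 and 34 with a pseudocount of 1 and 31 and 26 at a mean over 5 FPKM, with 88 lower without a filter and 94 at unadjusted p. LPS-MIC-1 against LPS gave 916 and 515, then 452 and 204 at a mean over 5 FPKM, 275 lower with a pseudocount of 1, 798 lower without a filter, 781 and 667 with quantile normalization (shift -0.11) and 1093 and 400 with equal totals (shift 0.13). Against control, 884 and 580 became 462 and 215, 341 lower, 915 lower, 782 and 713 (shift -0.11), and 1152 and 447 (shift 0.15) in the same order.

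Replicate numbers did not pair the libraries. Same-numbered libraries deviated with r from -0.076 to 0.082, and 7 of 18 correlated best with their own number. With a replicate block no member's call changed (Myod1 in muscle LPS-MIC-1 against LPS -2.82, adjusted p = 7.06e-07).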
